A study of Mus musculus with 6 samples.

Results

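The genes described here code for the proteins that bring fatty acids into a cell and burn them in its mitochondria, and they were followed in the gastrocnemius, a mixed and mostly fast-twitch calf muscle of the mouse. They comprise 38 genes listed by name for their roles, and all 38 were found among the 12353 genes of the expression table. The muscles came from 3 Nogo+/+ mice, which carry the intact Nogo gene *Rtn4*, and from 3 Nogo-/- mice, in which that gene is knocked out. The knock-out line was obtained from another laboratory, all mice lived under a 12 h light-dark cycle, and the age and sex of these 6 mice are not given in the sources used here. The labels call the samples biological replicates, and 1 library of polyadenylated RNA was made from each. Levels are given as FPKM, a read-out corrected for transcript length and sequencing depth, in the order of libraries 1, 2 and 3 (Nogo+/+) and 4, 5 and 6 (Nogo-/-).

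Long-chain fatty acids reach a muscle fiber after lipoprotein lipase frees them from circulating triglyceride, cross the membrane with the help of CD36, and are bound to coenzyme A by acyl-CoA synthetases. The carnitine shuttle carries the acyl groups into the mitochondrion, where each turn of beta-oxidation uses an acyl-CoA dehydrogenase, a hydratase, a second dehydrogenase and a thiolase, and electrons leave through the electron transfer flavoproteins. The pyruvate dehydrogenase kinases belong to the same switch of fuels, since they hold back the entry of glucose carbon, and PPAR and ERR nuclear receptors drive the transcription of many of these genes.

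Across these genes the Nogo-/- muscles differed little from the Nogo+/+ muscles. Of the 38 genes, 1 rose (*Nudt7*) and 1 fell (*Pdk4*) in limma at an adjusted p under 0.05, and 36 did not pass. Of all genes tested, 4.64% passed, 1.89% as higher and 2.75% as lower in the Nogo-/- muscles, so the 5.26% of the members that passed lay near that background. Without library 2, 3 or 4 no member passed in limma (5, 5 and 6 at an unadjusted p under 0.05). An unadjusted p under 0.05 was found for 5 of the 38 (13.2%), against 20.5% of all genes. That count depended on the fit. It was 8 of the 38 without quantile normalization (2479 of all 12353 genes), 4 without a trend in limma (2389), and 4 to 10 without 1 library (1846 to 2392). The 3 values of each group did not overlap on the normalized log2 scale for 8 of the 38 (21.1%), against 26.0% of all genes. The median log2 fold change of the members, which is Nogo-/- minus Nogo+/+ on log2(FPKM + 1), was -0.01, as was that of all genes. For 24 of the 36 genes that did not pass, the whole 95% interval of the fold change lay within 0.25 of 0 on the log2 scale, and for the other 12 it reached further.

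**Figure D1:**
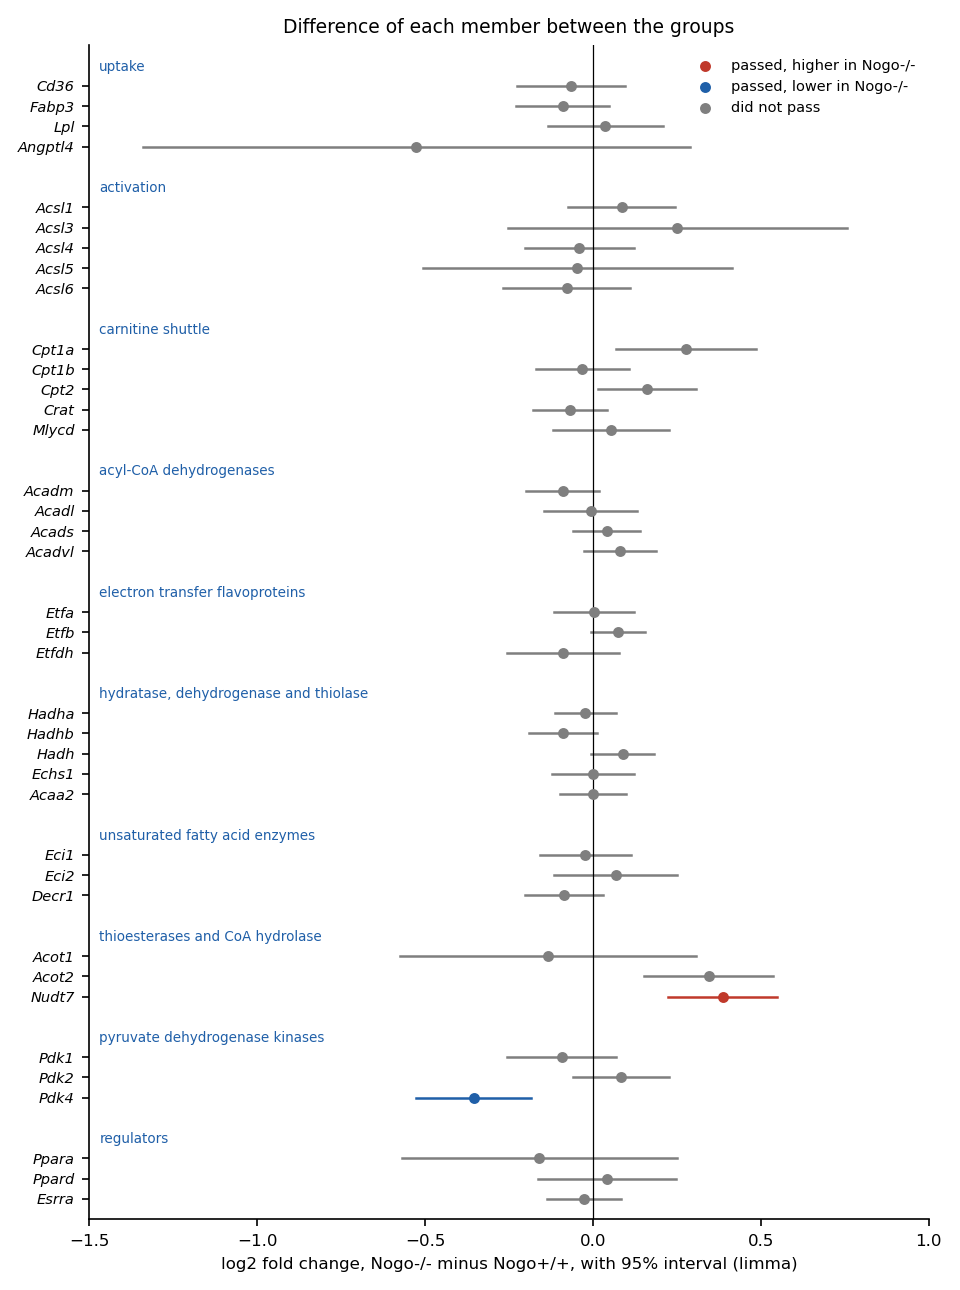
The log2 fold change of each of the 38 genes (x axis, Nogo-/- minus Nogo+/+) is drawn as a point with its 95% interval from limma, grouped by role (y axis). *Nudt7* stands above 0 and *Pdk4* below it, while the genes of the oxidation enzymes cluster within 0.09 of 0 and *Angptl4* has the widest interval.

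*Rtn4* was read at 413.9, 428.9 and 424.9 FPKM in the Nogo+/+ libraries and at 0.423, 0.312 and 0.368 FPKM in the Nogo-/- libraries, so each library matched its label. None of 10 muscle fiber markers passed in limma (1 at an unadjusted p under 0.05), with a summed level of 38057 to 38955 FPKM in Nogo+/+ and 35799 to 38320 FPKM in Nogo-/-. Quantile normalization gave *Ckm*, *Acta1*, *Tnnt3* and *Myh4* the same value in every library, so these could not pass. Their mean FPKM in Nogo+/+ was 6600, 5923, 5575 and 2999. In Nogo-/- it was 6428, 5636.5, 5448 and 2747. None of 16 markers of mitochondrial content passed either (5 at an unadjusted p under 0.05, 7835 to 8015 and 7951 to 8135 FPKM in sum). Of 10 slow and oxidative fiber markers only *Mb*, myoglobin, passed in limma, and it fell (-0.15, adjusted p = 0.00562). As FPKM *Mb* was 1739, 1761 and 1715 in Nogo+/+ and 1734, 1645 and 1627 in Nogo-/-. Library 4 was inside the Nogo+/+ range, so the groups were apart only after normalization. Whether the call held in the other settings was not examined. In this list 4 of the 10 had an unadjusted p under 0.05. The log2 fold changes ran from -0.21 to -0.002, with a median of -0.07, and the list was at 4333 to 4587 and 4246 to 4332 FPKM in sum. Markers of other cell types were read beside these. Of 10 adipocyte markers none passed, 7 had an unadjusted p under 0.05 and none was at 0. Their median log2 fold change was 0.52, and all were higher in Nogo-/- (up to 1.18 for *Cidec*) except *Car3* (-0.08). Their mean log2 level was 4.69 to 5.07 in Nogo+/+ and 5.08 to 5.97 in Nogo-/-, highest in library 4. Their summed level was 1696 to 1903 and 1749 to 2302 FPKM, most of it *Car3*, at 1131 to 1378 FPKM over the libraries. The next highest, *Fabp4*, had means of 252.2 FPKM in Nogo+/+ and 308.5 FPKM in Nogo-/-. The sum is therefore mostly the level of 1 gene and is not read as an amount of fat. Of 10 endothelial markers 6 fell and 1 rose, with a summed level of 282.8 to 315.9 and 243.0 to 283.6 FPKM. Markers of skin keratinocytes summed to 284.9 FPKM in library 6 and to 7.37 to 19.8 FPKM in the other 5 libraries. Neither these markers nor those of macrophages held a gene that passed or had an unadjusted p under 0.05, and the 9 measured macrophage markers showed no such shift (78.8 to 120.9 and 72.8 to 118.0 FPKM in sum). In bulk muscle, fewer cells of a type and less RNA per cell cannot be told apart. The part that these cells play in the results below was not tested. The depth, recovered from the steps of 1 fragment in low FPKM values, was 13500000 to 14600000 fragments per library.

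The genes of uptake did not pass. Fatty acid binding protein 3 (*Fabp3*), which carries fatty acids through the cytoplasm, was the most abundant of the 38 genes per length, at 413.4, 446.1 and 415.1 FPKM in Nogo+/+ and 416.5, 441.6 and 368.3 FPKM in Nogo-/-. These values overlap, and the lowest is that of library 6 (log2 fold change -0.09, 95% interval -0.23 to 0.05, adjusted p = 0.457). Lipoprotein lipase (*Lpl*) lay between 188.4 and 200.6 FPKM in Nogo+/+ and between 181.3 and 224.2 FPKM in Nogo-/-, where the groups also overlap (0.04, adjusted p = 0.823). The translocase *Cd36* was read at 95.5 ± 4.70 (SD, n = 3) and 94.2 ± 9.57 FPKM (SD, n = 3), a log2 fold change of -0.07 (adjusted p = 0.658). The level of *Angptl4*, a secreted inhibitor of lipoprotein lipase, was far less steady. It was 3.37, 7.26 and 6.54 FPKM in Nogo+/+ and 7.16, 2.08 and 2.87 FPKM in Nogo-/-, so that 1 library of each group stood apart from the other two. Its log2 fold change of -0.53 had an interval of -1.34 to 0.29 (adjusted p = 0.461), and its spread within the groups, an SD of 0.62 on the log2 scale, was larger than that of 99.1% of all genes.

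**Figure D2:**
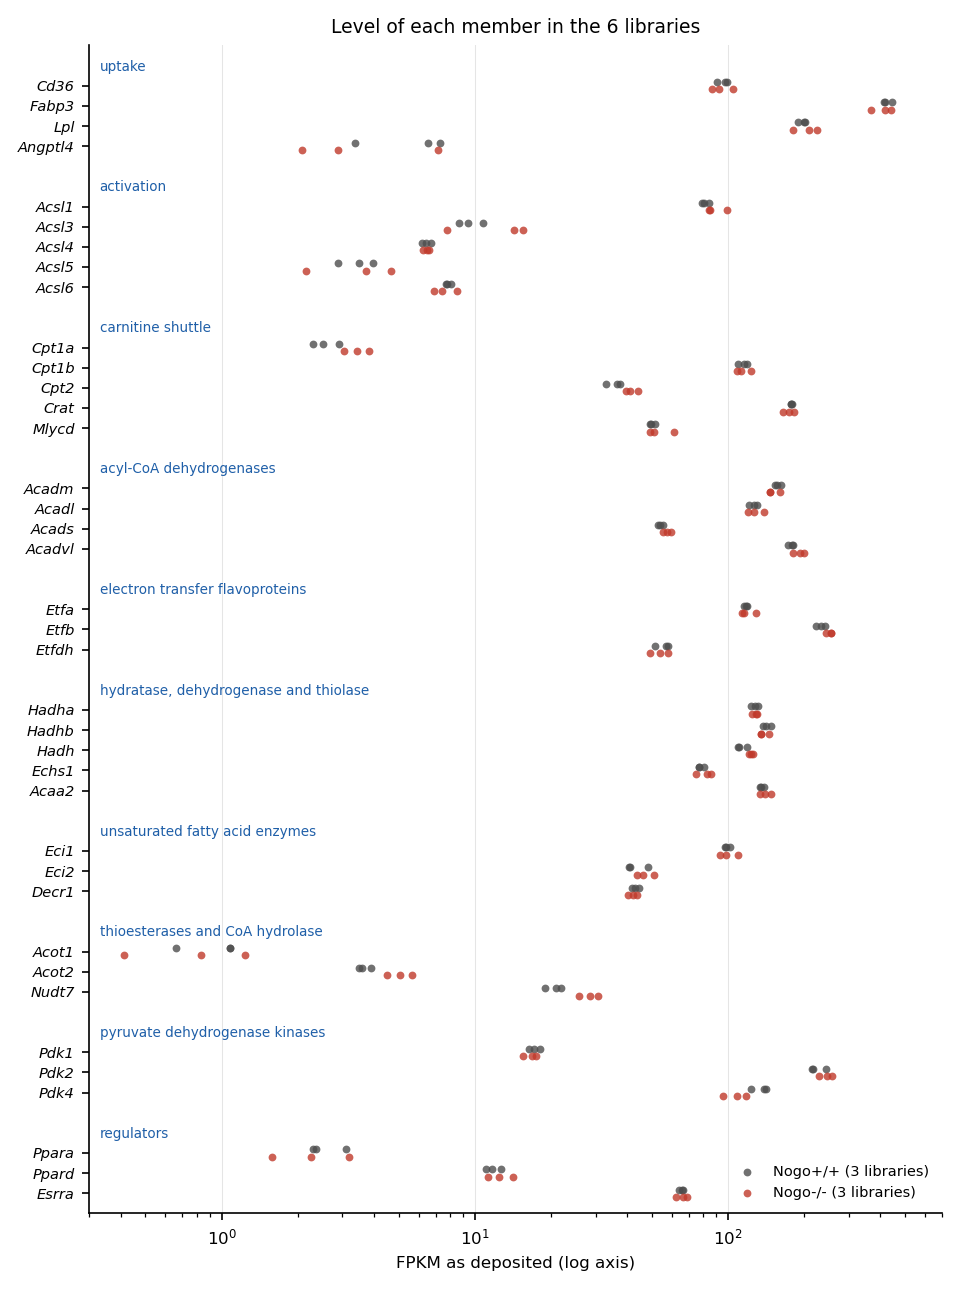
Each point is the deposited FPKM (x axis, log scale) of 1 gene in 1 library, with Nogo+/+ in gray and Nogo-/- in red and the genes grouped by role (y axis). The levels run from *Acot1*, at or under 1.23 FPKM, to *Fabp3*, at up to 446.1 FPKM, and the groups lie on top of each other for most genes.

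Among the long-chain acyl-CoA synthetases, which activate fatty acids, *Acsl1* held 72.0% to 80.1% of the summed FPKM of the 5 genes in every library. *Acsl1* was read at 79.0, 84.1 and 80.6 FPKM in Nogo+/+ and at 83.94, 99.38 and 84.95 FPKM in Nogo-/-, with 1 Nogo-/- library inside the Nogo+/+ range (log2 fold change 0.09, 95% interval -0.07 to 0.25, adjusted p = 0.550). The remaining synthetases stood between 2.16 and 15.4 FPKM. *Acsl3* was 8.69, 10.7 and 9.42 FPKM in Nogo+/+ and 15.4, 7.75 and 14.3 FPKM in Nogo-/-: libraries 4 and 6 were above every Nogo+/+ library and library 5 was below them all. Its log2 fold change was 0.25 (adjusted p = 0.583) over all 6 libraries and 0.55 (adjusted p = 0.0335) without library 5. *Acsl5* was also lowest in library 5, at 3.71, 2.16 and 4.65 FPKM in Nogo-/- against 2.88 to 3.97 FPKM in Nogo+/+, with a log2 fold change of -0.05 and an interval of -0.51 to 0.41. *Acsl4* and *Acsl6* were steadier and did not pass (-0.04 and -0.08).

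In the carnitine shuttle, *Cpt1a* and *Cpt2* had the larger differences, and neither passed. Carnitine palmitoyltransferase 1 makes acylcarnitine at the outer membrane, in a muscle form (*Cpt1b*) and a liver form (*Cpt1a*), and *Cpt2* turns it back into acyl-CoA inside. *Cpt1b* was read at 115.2, 119.3 and 109.5 FPKM in Nogo+/+ and at 108.4, 123.3 and 112.4 FPKM in Nogo-/-, which overlap (-0.03, 95% interval -0.17 to 0.11). *Cpt1a* was much lower, at 2.90, 2.51 and 2.30 FPKM in Nogo+/+ and 3.83, 3.42 and 3.05 FPKM in Nogo-/-. Every Nogo-/- value of *Cpt1a* was above every Nogo+/+ value, but the difference of 0.28 (95% interval 0.07 to 0.48) missed the threshold in limma (adjusted p = 0.138). The level of *Cpt1b* was 39.8, 47.5 and 47.6 times that of *Cpt1a* in Nogo+/+ and 28.3, 36.0 and 36.8 times in Nogo-/-. *Cpt2* was 33.0, 36.6 and 37.4 FPKM in Nogo+/+ and 41.2, 44.0 and 39.4 FPKM in Nogo-/-, again without overlap and short of the threshold (0.16, 95% interval 0.01 to 0.31, adjusted p = 0.207). Carnitine acetyltransferase (*Crat*), which buffers acetyl-CoA, was at 178.2 ± 0.951 and 173.5 ± 9.17 FPKM (SD, n = 3 each). *Mlycd*, which breaks down malonyl-CoA, the inhibitor of carnitine palmitoyltransferase 1, was at 50.1 ± 1.18 and 53.9 ± 6.58 FPKM. Neither passed (-0.07 and 0.05).

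The 15 genes of the oxidation steps themselves showed the smallest differences. None of them passed in limma or had an unadjusted p under 0.05, their log2 fold changes ran from -0.09 to 0.09, and the lowest and highest ends of their 95% intervals were -0.26 and 0.25. Their summed FPKM was 1676, 1712 and 1715 in Nogo+/+ and 1731, 1836 and 1688 in Nogo-/-, with libraries 4 and 5 above the Nogo+/+ range and library 6 inside it. On the normalized log2 scale library 5 held the highest value for 9 of the 15 and library 2, a Nogo+/+ library, for 5, so the highest values were not all in 1 group.

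The acyl-CoA dehydrogenases, which act on chains of different length, were ranked alike in both groups by mean FPKM. The very long-chain enzyme *Acadvl* was at 171.9, 178.8 and 180.55 FPKM in Nogo+/+ and 192.9, 200.3 and 180.78 FPKM in Nogo-/-. Those ranges just fail to overlap as FPKM but do overlap after normalization (0.08, 95% interval -0.03 to 0.19, adjusted p = 0.382). The medium-chain enzyme *Acadm* was at 156.7 ± 4.34 and 151.0 ± 8.19 FPKM, the long-chain enzyme *Acadl* at 126.2 ± 4.41 and 128.3 ± 9.83 FPKM, and the short-chain enzyme *Acads* at 54.1 ± 1.26 and 57.3 ± 2.02 FPKM (SD, n = 3 each), with log2 fold changes of -0.09, -0.01 and 0.04. *Acads* was among the steadiest genes of the table, with a within-group SD larger than that of only 2.11% of genes.

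Of the electron transfer flavoproteins, *Etfb*, the beta subunit, was at 240.6, 221.9 and 233.2 FPKM in Nogo+/+ and 255.4, 254.7 and 242.7 FPKM in Nogo-/-. The groups of *Etfb* did not overlap, and the difference was small (0.08, 95% interval -0.01 to 0.16, adjusted p = 0.276). *Etfa*, the alpha subunit, had a log2 fold change of 0.00 (95% interval -0.12 to 0.12), and *Etfb* stood at 1.89 to 2.03 times its FPKM in Nogo+/+ and at no less than 1.97 times in Nogo-/-. *Etfdh*, which passes the electrons to ubiquinone, was at -0.09.

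The subunits of the trifunctional protein, which joins the last steps for long chains, stayed close together. *Hadha* was at 123.6, 128.1 and 131.9 FPKM in Nogo+/+ and 124.9, 129.6 and 129.5 FPKM in Nogo-/-, ranges that overlap almost fully (-0.02, 95% interval -0.11 to 0.07, adjusted p = 0.802). The FPKM of *Hadhb* was 1.07 to 1.16 times that of *Hadha* in Nogo+/+ and 1.04 to 1.12 times in Nogo-/-, and its log2 fold change was -0.09 (adjusted p = 0.307). *Hadh*, the dehydrogenase for shorter chains, was at 109.7, 110.9 and 119.1 FPKM in Nogo+/+ and 125.4, 123.7 and 120.6 FPKM in Nogo-/-. This is a difference without overlap that did not pass (0.09, 95% interval -0.01 to 0.18, adjusted p = 0.278). The hydratase *Echs1* and the thiolase *Acaa2* were at 0.00 each, with intervals of -0.12 to 0.12 and -0.10 to 0.10.

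The auxiliary enzymes for unsaturated fatty acids did not pass. The isomerases *Eci1* and *Eci2*, which shift double bonds, were at -0.02 and 0.07, and the reductase *Decr1* at -0.09. *Eci1* was the most abundant of them, at 98.9 ± 2.44 and 100.1 ± 8.52 FPKM (SD, n = 3 each). The groups of *Decr1* overlapped as FPKM (41.8 to 44.45 and 40.3 to 43.5) and not after normalization, at an adjusted p of 0.382.

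*Nudt7* was the gene that rose. It codes for a diphosphatase of the peroxisome that cleaves coenzyme A and its acyl esters, and lies at chr8:114133557-114154739 of GRCm38 on the plus strand. Its level was 20.8, 19.0 and 21.99 FPKM in Nogo+/+ and 28.5, 30.5 and 25.7 FPKM in Nogo-/-. All 3 Nogo-/- values were above all 3 Nogo+/+ values, with a log2 fold change of 0.39 ± 0.07 (SE), a 95% interval of 0.22 to 0.55 and an adjusted p of 0.0219 in limma. It passed in all 6 other settings of the fit and in 1 of the 6 fits without a library, namely without library 6. The adjusted p without 1 library was 0.0260 to 0.0989, and the fold change held at 0.34 to 0.44 in all 12.

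**Figure D3:**
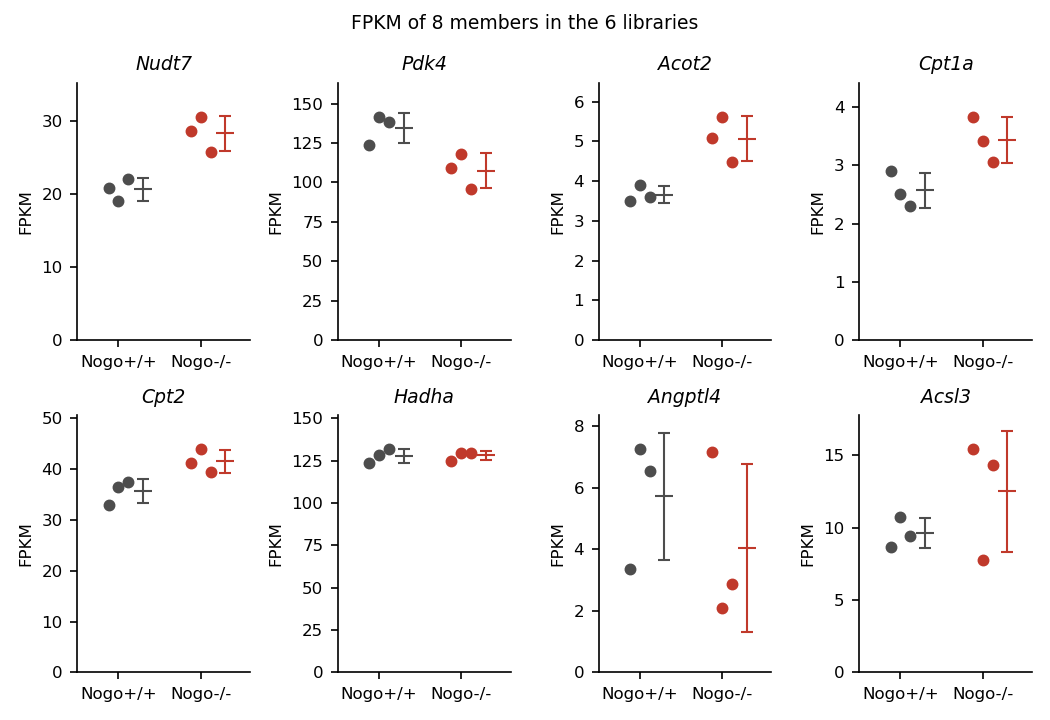
The FPKM (y axis, from 0) of 8 genes is shown for each of the 3 Nogo+/+ libraries (gray) and the 3 Nogo-/- libraries (red), with the mean and SD of each group beside the points. The groups are apart for *Nudt7*, *Pdk4*, *Acot2*, *Cpt1a* and *Cpt2*, coincide for *Hadha*, and are spread over each other for *Angptl4* and *Acsl3*.

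*Pdk4* was the gene that fell. It codes for the pyruvate dehydrogenase kinase that is induced by fasting, and lies at chr6:5483351-5496309 on the minus strand. It was read at 123.7, 141.7 and 138.5 FPKM in Nogo+/+ and at 108.9, 117.8 and 95.5 FPKM in Nogo-/-. Each Nogo-/- value was below each Nogo+/+ value, and the log2 fold change was -0.35 ± 0.07 (SE), with a 95% interval of -0.53 to -0.18 and an adjusted p of 0.0369 in limma. The call was lost without quantile normalization (adjusted p = 0.0673), without a trend in limma (0.0945) and in 4 of the 6 fits without a library, those without libraries 2, 3, 4 and 6 (0.0682 to 0.149), with fold changes of -0.42 to -0.29 throughout the 12 alternatives. The other kinases did not pass. *Pdk2*, the most abundant, was at 244.6, 215.2 and 215.9 FPKM in Nogo+/+ and 229.0, 258.2 and 245.8 FPKM in Nogo-/- (0.08, 95% interval -0.06 to 0.23), and *Pdk1* was at -0.09. *Pdk4* made up 32.2%, 37.9% and 37.2% of the FPKM of these 3 kinases in Nogo+/+ and 30.8%, 29.9% and 26.7% in Nogo-/-.

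The sequences before these genes are given because they are the members whose level differed. They come from RefSeq on GRCm38.p6, start 250 bases before a RefSeq start and end before the first base of the gene in GENCODE M21. Capitals mark the GC box CCGCCC and the CCAAT box, on either strand. The stretch of *Nudt7* is chr8:114133324-114133556 on the plus strand, 233 bases long, and that of *Pdk4* is chr6:5496310-5496528 on the minus strand, 219 bases long, each written from 5′ to 3′.
Nudt7: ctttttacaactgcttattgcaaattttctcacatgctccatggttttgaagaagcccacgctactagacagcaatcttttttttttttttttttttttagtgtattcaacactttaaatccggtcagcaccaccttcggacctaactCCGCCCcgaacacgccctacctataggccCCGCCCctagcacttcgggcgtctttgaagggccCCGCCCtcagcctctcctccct
Pdk4: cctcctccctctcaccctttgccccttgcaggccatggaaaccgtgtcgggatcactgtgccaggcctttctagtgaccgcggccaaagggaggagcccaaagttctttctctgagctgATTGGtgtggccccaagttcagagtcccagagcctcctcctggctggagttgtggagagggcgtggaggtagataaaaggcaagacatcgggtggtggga
The stretch of *Nudt7* held 3 GC boxes and no CCAAT box, and that of *Pdk4* held 1 CCAAT box, read on the opposite strand, and no GC box. RefSeq promoters of 300 bases (250 before to 50 after a start) matched 32 of the 38 genes. The GC box stood in a promoter of 23 of the 32, against 35.7% of 32851 promoters, and the CCAAT box in 17, against 37.4%. The core of the NRF1 site, GCATGCGC, stood in 6 (*Acadm*, *Esrra*, *Etfa*, *Etfdh*, *Nudt7* and *Ppara*), against 2.71% of all. The match of *Nudt7* lies outside the stretch printed above. A gene with several starts counts once among the 32 and each of its starts among the 32851, so the shares are not on the same footing. The nuclear receptor half-site AGGTCA stood in 6, *Cpt1a* and *Cd36* among them (16.3% of all), the longer TCAAGGTCA that ERR receptors read, which contains it, in *Acsl6* (0.423%), the E-box CACGTG in *Pdk2* (7.15%), and the FOXO site GTAAACA in none (3.65%). Each is a match of letters in a short window on either strand.

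The thioesterases *Acot1* and *Acot2* cut acyl-CoA back to free fatty acid, in the cytosol and the mitochondrion respectively. *Acot2* was at 3.49, 3.91 and 3.59 FPKM in Nogo+/+ and 5.08, 5.63 and 4.49 FPKM in Nogo-/-. The groups were apart, and the log2 fold change of 0.34 (95% interval 0.15 to 0.54) fell just short in limma (adjusted p = 0.0580). It passed with sample weights (0.0488) and in none of the 6 fits without a library (0.0719 to 0.174). *Acot1* was near the floor of the table, at 1.08, 1.08 and 0.660 FPKM in Nogo+/+ and 0.412, 1.23 and 0.829 FPKM in Nogo-/-. With its longest transcript that is at most 15 to 47 fragments per library, and its difference of -0.13 had an interval of -0.57 to 0.31. The coding sequences of *Acot1* and *Acot2* in GENCODE M21 are identical at 95.6% of 1236 aligned bases, so fragments may have been shared between them and their separate levels are uncertain.

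The regulators among the members did not pass. *Ppara*, the fatty acid sensing receptor, was at 3.11, 2.30 and 2.35 FPKM in Nogo+/+ and 1.58, 3.18 and 2.26 FPKM in Nogo-/-, with the Nogo-/- values on both sides of the Nogo+/+ range (-0.16, 95% interval -0.57 to 0.25). *Ppard* was at 11.8 ± 0.815 and 12.6 ± 1.41 FPKM and *Esrra* at 65.3 ± 1.28 and 66.0 ± 3.28 FPKM (SD, n = 3 each), at 0.04 and -0.03. *Esrra* was steady, while *Ppara*, *Acot1*, *Acsl5*, *Acsl3* and *Angptl4* were the 5 members with a within-group SD above that of 90% of all genes. The median within-group SD of the 38 was 0.090 on the log2 scale, against 0.103 for all genes.

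The exons of 9 members overlap those of another gene of the table, for 8 of them on the opposite strand (*Fabp3*, *Acadvl*, *Crat*, *Echs1*, *Etfdh*, *Esrra*, *Acsl5* and *Acsl6*). The remaining member, *Cpt1b*, overlaps *Gm44502* on the same strand, where strand cannot separate the fragments. The level of *Cpt1b* and its ratio to *Cpt1a* carry that limit. The libraries were stranded, but the sources used here do not say whether strand was used when fragments were assigned. *Nudt7*, *Pdk4*, *Acot2* and *Cpt1a* have no such overlap.

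A wider set of 99 measured genes of fatty acid oxidation was set beside the members, in 8 lists. Of these, 5 rose and 5 fell, and 89 did not pass (background 4.64%), and their median log2 fold change was 0.02. The enzymes again did not pass: none of 21 other genes of mitochondrial oxidation (3 at an unadjusted p under 0.05), none of 16 of peroxisomal oxidation (1), none of 6 other thioesterases (0) and none of 11 genes of the pyruvate dehydrogenase complex (2). The log2 fold changes ran from -0.15 to 0.37 in the mitochondrial list, from -0.06 to 0.24 in the peroxisomal list, from -0.18 to 0.09 among the thioesterases and from -0.26 to 0.23 in the pyruvate dehydrogenase complex. The mitochondrial value furthest from 0 was that of *Acad10*, an acyl-CoA dehydrogenase, at 1.34 to 1.77 FPKM in Nogo+/+ and 1.66 to 3.13 FPKM in Nogo-/-, where the groups overlap (95% interval 0.03 to 0.72, adjusted p = 0.214), and it was named after its values were seen. Among the genes of pyruvate entry, the phosphatase *Pdp1*, which opposes the kinases, was at 22.3, 26.7 and 26.9 FPKM in Nogo+/+ and 31.7, 32.4 and 29.3 FPKM in Nogo-/- (0.23, adjusted p = 0.156) and was named after its values were seen.

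**Figure D4:**
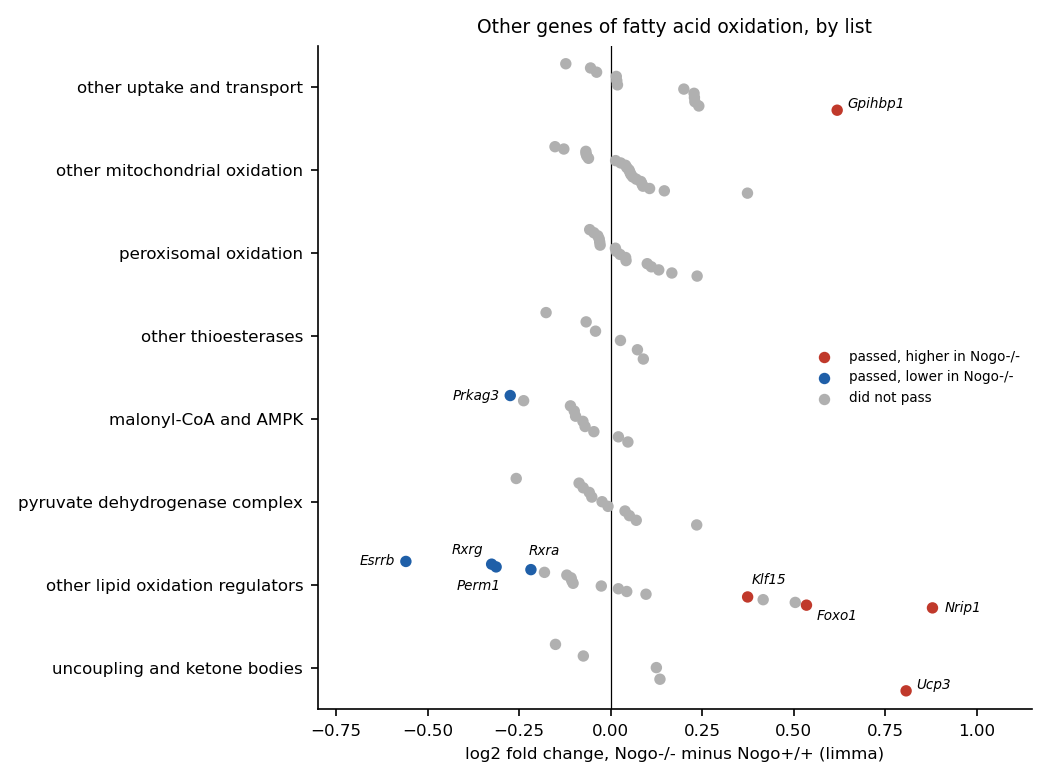
Each point is 1 of 99 further genes of fatty acid oxidation, placed by its log2 fold change from limma (x axis) in its list (y axis), red where it rose, blue where it fell and gray where it did not pass. The enzyme lists stay gray, with *Acad10* the furthest from 0 among them at 0.37. Of the 10 colored points, 7 belong to the list of regulators, and the lists were chosen with earlier results of these data known.

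Those that passed were regulators, a capillary protein, a subunit of AMP kinase and an uncoupling protein. *Gpihbp1*, which holds lipoprotein lipase on the capillary wall, was at 38.7, 35.5 and 36.7 FPKM in Nogo+/+ and 65.5, 50.9 and 61.5 FPKM in Nogo-/- (0.62 ± 0.09 SE, adjusted p = 0.00942). It rose while 6 of the 9 other endothelial markers fell, *Cldn5* by 1.13 and *Kdr* by 0.92 on the log2 scale. *Ucp3*, a mitochondrial carrier of muscle, was at 26.7, 29.7 and 28.4 FPKM in Nogo+/+ and 48.7, 49.8 and 57.6 FPKM in Nogo-/-, with no overlap (0.81 ± 0.08 SE, adjusted p = 0.00146). *Prkag3*, the gamma subunit of AMP kinase found in fast muscle, fell from 111.1, 109.4 and 112.1 FPKM to 95.8, 91.6 and 93.4 FPKM (-0.27 ± 0.04 SE, adjusted p = 0.00549). *Gpihbp1* lost its call without library 2 (adjusted p = 0.0598) and without library 3 (0.0531), whereas *Ucp3* and *Prkag3* passed in all 12 alternatives.

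Of 18 other regulators of lipid oxidation, 3 rose and 4 fell, where 4.64% of all genes passed. The list was chosen with earlier results of these data known, so the count cannot show that regulators changed more than other genes. *Nrip1*, a corepressor of nuclear receptors, rose from 2.79, 2.90 and 2.84 FPKM to 5.38, 8.03 and 5.63 FPKM (0.88 ± 0.13 SE, adjusted p = 0.00778) and passed in all 12 alternatives. *Klf15*, a transcription factor of fasting metabolism, was at 15.2, 13.4 and 13.8 FPKM in Nogo+/+ and 18.4, 20.4 and 18.9 FPKM in Nogo-/- (0.37 ± 0.07 SE, adjusted p = 0.0216). In both genes every Nogo-/- library was above every Nogo+/+ library. The retinoid receptor *Rxrg*, a partner of PPARs, fell from 43.7, 45.4 and 47.6 FPKM to 37.7, 37.9 and 37.2 FPKM (-0.33 ± 0.05 SE, adjusted p = 0.0101), and *Esrrb*, an ERR receptor at a low level, fell from 3.11, 2.92 and 2.51 FPKM to 1.45, 1.81 and 1.78 FPKM (-0.56 ± 0.11 SE, adjusted p = 0.0260). *Klf15* lost its call without libraries 2, 3, 5 and 6 (adjusted p up to 0.103), *Rxrg* without libraries 2 and 3 (up to 0.0613) and *Esrrb* without libraries 1, 2, 3 and 4 (up to 0.116). *Foxo1* also rose (0.53, adjusted p = 0.0448) and *Rxra* (-0.22, 0.0483) and *Perm1* (-0.31, 0.0326) also fell. These were named after their values were seen. *Foxo1* and *Rxra* passed in none of the 6 fits without a library, and *Perm1* passed only without library 5. In the 6 other settings of the fit *Foxo1* passed in 5 (adjusted p up to 0.0721), *Rxra* in 3 (up to 0.105) and *Perm1* in 4 (up to 0.0855). The coactivator *Ppargc1a* was at 5.86, 6.14 and 5.84 FPKM in Nogo+/+ and 4.91, 6.996 and 4.94 FPKM in Nogo-/-, with library 5 above and libraries 4 and 6 below the Nogo+/+ range (adjusted p = 0.617).

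Some genes of this set that other cells also express were highest in the libraries with more of those cells' markers. *Fabp4*, which is on the adipocyte list too, was highest in library 4 (375.4 FPKM, against 244.9 to 293.2 FPKM in the other 5), as was *Pparg* (5.88 FPKM, against 2.42 to 4.69 FPKM), and *Slc27a4* and *Fabp5* were highest in library 6, the library with keratinocyte markers (8.27 FPKM against 4.44 to 5.38 FPKM, and 24.1 FPKM against 12.2 to 17.3 FPKM). None of these 4 passed. The groups of *Pparg* did not overlap on the normalized log2 scale, unlike those of *Fabp4*, *Slc27a4* and *Fabp5*. Its log2 fold change was 0.50 (95% interval 0.11 to 0.90, adjusted p = 0.154 in limma), and the paper lists *Pparg* as upregulated. These 4 genes were picked for this match after their values were seen, and the genes without such a match were not counted. *Nudt7* and *Acot2* were highest in library 5, and *Pdk4* was lowest in library 6. On the normalized log2 scale 3 members were highest in library 4, namely *Cpt1a*, *Hadh* and *Acsl3*. That compares with 20 members in library 5 and 12 in library 2. *Cpt1a* was at 3.83, 3.42 and 3.05 FPKM in libraries 4, 5 and 6. Whether its level goes with the adipocyte markers was not tested.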

How the data were processed

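The input was gene expression in gastrocnemius of 3 Nogo+/+ and 3 Nogo-/- mice. Per the submitters' processing notes, the authors used CASAVA 1.8.2, cutadapt 1.4.2, STAR 2.6.1 on GRCm38.p6 and Cufflinks 2.2.1, and deposited FPKM for 12353 genes, each reaching 1 FPKM in some library. Columns were assigned to groups and not to single mice, and 6 columns of normalized log2 values were not used. FPKM were quantile-normalized, put on log2(FPKM + 1), which understates changes of low genes, and compared with limma 3.58.1 in R 4.3.3 (lmFit, eBayes with a trend, no covariates). P-values were adjusted by Benjamini-Hochberg over all 12353 genes, with a threshold of 0.05. The fit was repeated with sample weights, without a trend, after median-of-ratios scaling, without quantile normalization, on genes of mean FPKM 1 or more, with 0.1 as pseudocount, and without each library in turn. On simulated data with most changes in 1 direction, the fit recovered most changed genes, but false calls exceeded the share that the threshold allows, and more so with quantile normalization than without it. In the deposited data 233 genes passed as higher and 340 as lower in Nogo-/-, a different balance. The size of that excess among the calls reported here is therefore not known. Depth was taken from FPKM steps of single-transcript genes, of which at least 95.2% gave fragments within 0.1 of a whole number. Names and coordinates came from GENCODE M21 (12342 identifiers matched). Members, lists and markers were chosen with earlier results of these data known. All 38 members, *Rtn4* and up to 4 passing genes of each wider list, by smallest p, were to be named.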

Additional observations from a re-analysis of the deposited data

How the results depend on the processing

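No paired analysis was possible because the columns carry no replicate number that the labels share. The count of members that passed was 2. It was 1 without quantile normalization and 1 without a trend in limma (*Nudt7* in both), and 0 to 2 when 1 library was left out (none without library 2, 3 or 4, *Pdk4* without library 1, *Acsl3* and *Pdk4* without library 5, and *Nudt7* without library 6). It was 2 with a pseudocount of 0.1, with a mean FPKM of at least 1 (which leaves 37 of the members) and with median-of-ratios scaling, and 3 with sample weights. Of all genes 573 passed, and 188 to 434 without 1 library, which leaves fewer samples (301, 188, 192 and 378 without libraries 1, 2, 3 and 4). Of the 99 wider genes 10 passed, 7 without a trend, 8 without quantile normalization, 9 with median-of-ratios scaling, 10 in the 3 other settings, and 3 to 8 without 1 library (6, 3, 3 and 6 without libraries 1, 2, 3 and 4). Without quantile normalization 56.3% of all genes that passed were higher in Nogo-/-, against 40.7% in the reported fit, and the median fold change of all genes moved from -0.01 to 0.03 and that of the members from -0.01 to 0.02. Of the 36 members that did not pass, 15 changed sign in at least 1 of the 12 alternatives and 2 (*Acsl3* and *Acot2*) passed in 1. The sign printed for a difference near 0 is therefore not read as a direction. *Nudt7*, *Pdk4* and the 10 wider genes that passed kept their direction in all 12 alternatives. For *Angptl4*, *Acsl5*, *Acot1* and *Ppara*, whose level was low and unsteady, a fall as large as that of *Pdk4* (-0.35) lay inside the 95% interval.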
